A study of Homo sapiens with 7 samples.

Results

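The genes described here are 10 classical markers of epithelial and mesenchymal identity, measured in the human liver cancer cell line HepG2. They were chosen by name, as the loci of the expression table whose gene column holds a listed symbol, and 11 of 23303 named loci met this rule, since VIM is listed at 2 loci. The epithelial members are CDH1, EPCAM, CLDN1 and OCLN, and the mesenchymal members are CDH2, FN1, VIM, ZEB1, SNAI2 and TWIST1. All samples came from freshly cultured HepG2 cells with no treatment named, and each of 7 assays had 1 sample. These were RNA-Seq, MNase-Seq of native chromatin for nucleosome positions, and ChIP-Seq for the active marks H3K27ac, H3K9ac and H3K4me3 and the repressive marks H3K9me3 and H3K27me3. RNA-Seq was deposited as FPKM (fragments scaled to transcript length and library size) in 2 columns, called run 1 and run 2 here, and whether these are separate cultures is not given in the sources used here. The 2 columns are therefore counted as 1 replicate, and the word run is only a label for a column. So no assay has known replicates, and there are no groups of samples to compare. No test was run, and every difference given is a description of 1 cell line. In such bulk libraries, fewer cells expressing a gene and less RNA per cell cannot be told apart.

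Epithelial cells are held together by cadherins in adherens junctions and by claudins and occludin in tight junctions, whereas mesenchymal cells carry vimentin filaments and a fibronectin matrix and often N-cadherin in place of E-cadherin. In the epithelial-mesenchymal transition, the E-box binding repressors of the ZEB, SNAI and TWIST families turn down junction genes such as CDH1. In liver, hepatocytes are epithelial cells that also make N-cadherin and secrete plasma fibronectin. As background on the marks, H3K4me3 and H3K9ac are typical of active promoters, H3K27ac of active promoters and enhancers, H3K27me3 of Polycomb repression and H3K9me3 of heterochromatin. A nucleosome position with exactly H3K4me3, H3K9ac and H3K27ac is called trivalent, or "T", below.

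Promoter sequences are shown for 6 members with an E-box motif marked, and binding of any factor to it was not measured. The RefSeq promoter windows (GRCh38.p14, 250 bases before the start and 50 after it) matched 6 of the 10 members by symbol, with 14 windows in all. The nucleosome data are on hg19, so the windows could not be placed base by base on the nucleosome positions. Capitals mark the E-box CAGGTG and the GC box GGGCGG on either strand, the latter the letters that Sp1-type factors bind, and adjoining GC boxes overlap. The windows are CLDN1 (chr3:190322397-190322696, minus strand), OCLN, its first window (chr5:69492297-69492596, plus strand), FN1 (chr2:215436019-215436318, minus strand), CDH2, its first window (chr18:28177081-28177380, minus strand), VIM (chr10:17227991-17228290, plus strand) and ZEB1 (chr10:31318966-31319265, plus strand), each written 5′ to 3′ in the direction of transcription.
CLDN1: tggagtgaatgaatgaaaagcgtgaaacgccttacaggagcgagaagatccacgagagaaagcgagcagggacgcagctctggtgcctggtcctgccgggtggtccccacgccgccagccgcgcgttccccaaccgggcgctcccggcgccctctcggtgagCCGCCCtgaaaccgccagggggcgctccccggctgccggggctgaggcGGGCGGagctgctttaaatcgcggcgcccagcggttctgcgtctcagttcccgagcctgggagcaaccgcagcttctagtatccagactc
OCLN: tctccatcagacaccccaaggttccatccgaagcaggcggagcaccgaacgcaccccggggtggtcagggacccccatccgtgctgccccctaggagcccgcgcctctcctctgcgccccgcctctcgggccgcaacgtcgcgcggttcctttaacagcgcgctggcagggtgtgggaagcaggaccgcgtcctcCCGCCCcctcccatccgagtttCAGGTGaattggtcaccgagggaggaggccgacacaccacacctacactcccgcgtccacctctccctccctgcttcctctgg
FN1: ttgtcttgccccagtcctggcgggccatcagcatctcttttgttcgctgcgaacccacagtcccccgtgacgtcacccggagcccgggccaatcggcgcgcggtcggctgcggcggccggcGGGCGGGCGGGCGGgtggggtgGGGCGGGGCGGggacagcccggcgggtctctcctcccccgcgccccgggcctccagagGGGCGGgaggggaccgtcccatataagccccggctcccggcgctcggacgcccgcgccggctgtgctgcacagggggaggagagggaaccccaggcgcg
CDH2: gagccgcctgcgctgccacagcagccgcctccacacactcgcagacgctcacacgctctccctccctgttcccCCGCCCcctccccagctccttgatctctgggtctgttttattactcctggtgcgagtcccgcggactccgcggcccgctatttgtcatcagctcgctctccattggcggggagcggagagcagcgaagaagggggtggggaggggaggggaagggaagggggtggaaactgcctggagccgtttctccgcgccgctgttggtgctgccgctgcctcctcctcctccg
VIM: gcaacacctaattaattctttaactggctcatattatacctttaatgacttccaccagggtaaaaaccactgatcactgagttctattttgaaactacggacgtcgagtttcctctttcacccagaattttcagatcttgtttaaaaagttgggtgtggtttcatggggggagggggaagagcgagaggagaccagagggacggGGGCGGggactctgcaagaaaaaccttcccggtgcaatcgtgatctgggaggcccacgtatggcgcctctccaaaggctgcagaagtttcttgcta
ZEB1: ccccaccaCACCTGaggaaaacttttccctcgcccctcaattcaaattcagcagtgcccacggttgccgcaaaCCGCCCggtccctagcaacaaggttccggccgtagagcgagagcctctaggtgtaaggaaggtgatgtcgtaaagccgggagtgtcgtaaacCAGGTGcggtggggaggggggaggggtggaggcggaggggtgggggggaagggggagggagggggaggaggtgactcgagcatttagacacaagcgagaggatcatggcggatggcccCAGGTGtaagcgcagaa

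Of these windows, OCLN holds 1 E-box and ZEB1 holds 3, and CLDN1, FN1, CDH2 and VIM hold 0. The ZEB1 window shown is the one of its 7 with the most E-boxes, while the first holds 1 and the remaining 5 hold 0. The other OCLN window holds 2 E-boxes and the other CDH2 window 0. In all 35116 RefSeq promoter windows of this length, 20.6% hold this E-box and 45.0% the GC box. FN1 holds 6 GC boxes, CLDN1 holds 2, and OCLN, CDH2, VIM and this ZEB1 window hold 1 each. The motif TATAAA, searched on both strands, is in 1 of the 14 windows of the members, the second of CDH2, which is not among the 6 shown, and in 11.5% of all windows. The FN1 window is 76.7% G and C and the VIM window 48.0%, beside a median of 58.7% over all windows.

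Of the 10 genes, 7 were expressed, here meaning a mean FPKM of at least 1, a level that 48.7% of all named loci reached. All 4 epithelial members were expressed. Of the 6 mesenchymal members, CDH2, FN1 and ZEB1 were expressed, and VIM, SNAI2 and TWIST1 were not. The median FPKM was 28.1 in the epithelial and 2.995 in the mesenchymal group, and 0.790 over all named loci. The mesenchymal group spanned the wider range, since it held both the highest member, FN1, and the lowest, TWIST1.

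Among the epithelial genes, EPCAM, which encodes a cell adhesion molecule of epithelia and of fetal liver progenitors, reached 97.2 FPKM in run 1 and 96.6 in run 2. CLDN1, a tight junction claudin, had 47.7 and 45.7. These were the highest epithelial members, and only 747 named loci were above EPCAM. OCLN, which encodes occludin, had 9.34 and 9.82. CDH1, which encodes E-cadherin, had 6.67 and 5.80 and was the lowest of the epithelial members in both runs.

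Among the mesenchymal genes, FN1, which encodes fibronectin, reached 619.8 FPKM in run 1 and 598.1 in run 2, so that 118 named loci were higher. CDH2, which encodes N-cadherin, had 19.9 and 18.8. N-cadherin was thus above E-cadherin, by 2.98 times in run 1 and 3.24 times in run 2. VIM, the intermediate filament of mesenchymal cells, had 0.254 and 0.444. A second VIM locus with the same coordinates, numbered among loci of the opposite strand, was listed at 0 and 0.00741. FN1 exceeded VIM by 2440 times in run 1 and 1346 times in run 2, and between the runs VIM changed by 1.75 times and FN1 by 1.04 times.

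Of the 3 E-box factors, ZEB1 alone was expressed, at 5.39 FPKM in run 1 and 5.78 in run 2. SNAI2 had 0.381 and 0.423, and ZEB1 was 13.9 times as high by the means. TWIST1 was listed at 0 in both runs, as were 26.2% of all named loci. In the order of levels by the means, FN1 was followed by EPCAM, CLDN1, CDH2, OCLN, CDH1, ZEB1, SNAI2, VIM and TWIST1. Most neighbours in this order were separated in both runs, but the values of SNAI2 and VIM overlapped. CDH1 and ZEB1 differed by 1.12 times, and the higher ZEB1 value, 5.78, lay next to the lower CDH1 value, 5.80.

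**Figure D1:**
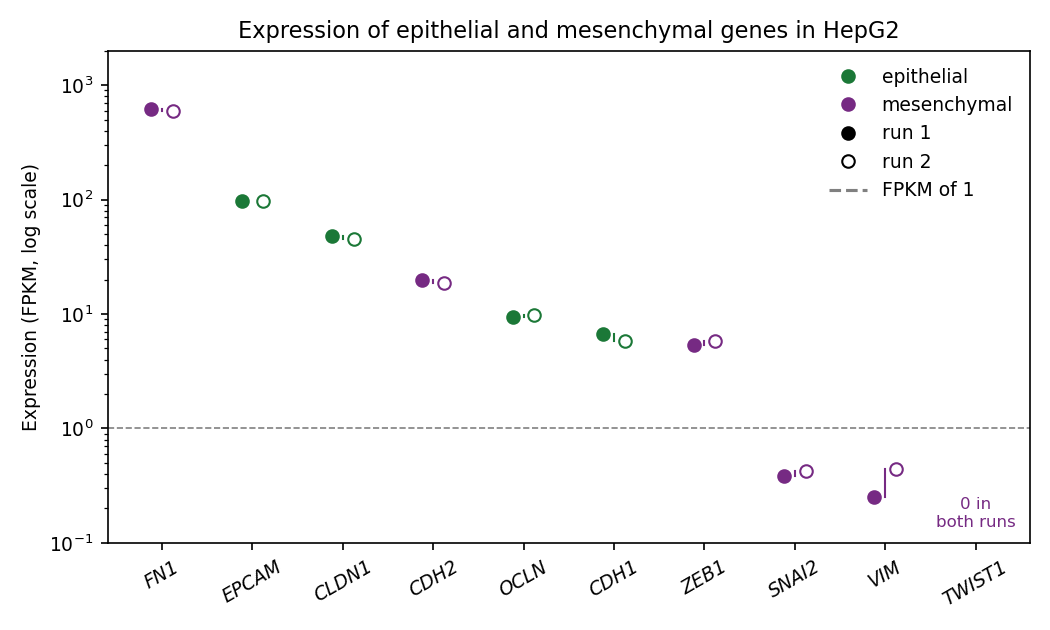
FPKM of the 10 genes on a log axis, with run 1 as filled and run 2 as open points, green for epithelial and purple for mesenchymal genes, and a dashed line at an FPKM of 1. All 4 green genes lie above the line, while the purple genes run from FN1 at 619.8 and 598.1 to TWIST1 at 0 in both runs.

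The identity of the cells was checked with marker genes. All 11 hepatocyte lineage markers were expressed, with ALB the highest at 10011. Of 9 stellate cell and fibroblast markers, 3 had an FPKM of at least 1 and DES was at 0. The highest was PDGFRB with 2.005, and the markers summed to 5.22 in run 1 and 5.93 in run 2. Of 5 endothelial markers, 0 reached an FPKM of 1 and the highest, CDH5, had 0.693. Of 5 leukocyte markers, 2 had an FPKM of at least 1, and PTPRC, CD3E and MS4A1 were at 0. The highest, CD68, had 543 in a locus merged with EIF4A1 and other genes. CD14 had 2.53 in a locus that is not merged. Of 5 bile duct markers, SPP1 (436), KRT19 and SOX9 were expressed and CFTR was at 0. ACTA2 (33.9), SPARC (29.5) and TAGLN (18.6, in a locus merged with SIDT2) are also expressed by stellate cells and fibroblasts. They are not in the stellate cell and fibroblast list and were above its highest marker, PDGFRB. The part of such cells in the level of FN1 was not tested.

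Histone marks were read over each locus plus 10 kb on either side. The windows held 4861 nucleosome positions, of which 143 (2.94%) carried at least 1 mark, against 2.20% in the same kind of window over the 22065 named loci with an inferred strand. H3K4me3 was found in 9 members, against 73.7% of named loci, and H3K9ac, H3K27ac and T were each found in 8, against 73.7%, 67.9% and 63.2%. These counts include marks near the TSS of neighbours. All T of CDH1 and all 3 activation marks of VIM lay near the TSS of TMCO7 and of TRDMT1, respectively. Inside the locus itself, 6 members had a T. T made up 52 of the 143 marked positions and H3K27ac alone 38. H3K4me3 alone was found at 19, H3K4me3/H3K9ac at 8, H3K27me3 alone at 8 and H3K9me3 alone at 8. CDH1 had 30 marked positions of 683, CDH2 25 of 1231 and FN1 25 of 564. TMCO7 starts near 6 of the CDH1 positions, and CDH1 had 24 without them, against 25 each for CDH2 and FN1, and these members have no fixed order. OCLN had 19 of 320, EPCAM 12 of 287, CLDN1 12 of 193 and ZEB1 11 of 1099. VIM had 4 of 244, SNAI2 3 of 130 and TWIST1 2 of 110. Without positions near the TSS of another locus, VIM had 1, TWIST1 and the expressed ZEB1 had 2 each, and SNAI2 had 3. An expressed member was thus among the lowest under this count. It left out 9 of the 11 ZEB1 positions, which lie near the TSS of LOC220930. The loci differ in length from 3.75 kb for SNAI2 to 226.5 kb for CDH2, so these counts are read beside the number of positions. As shares of the positions, CLDN1 was highest with 6.22% (exact 95% interval 3.25 to 10.6) and ZEB1 lowest with 1.001% (0.501 to 1.78). The intervals cover counting error only.

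**Figure D2:**
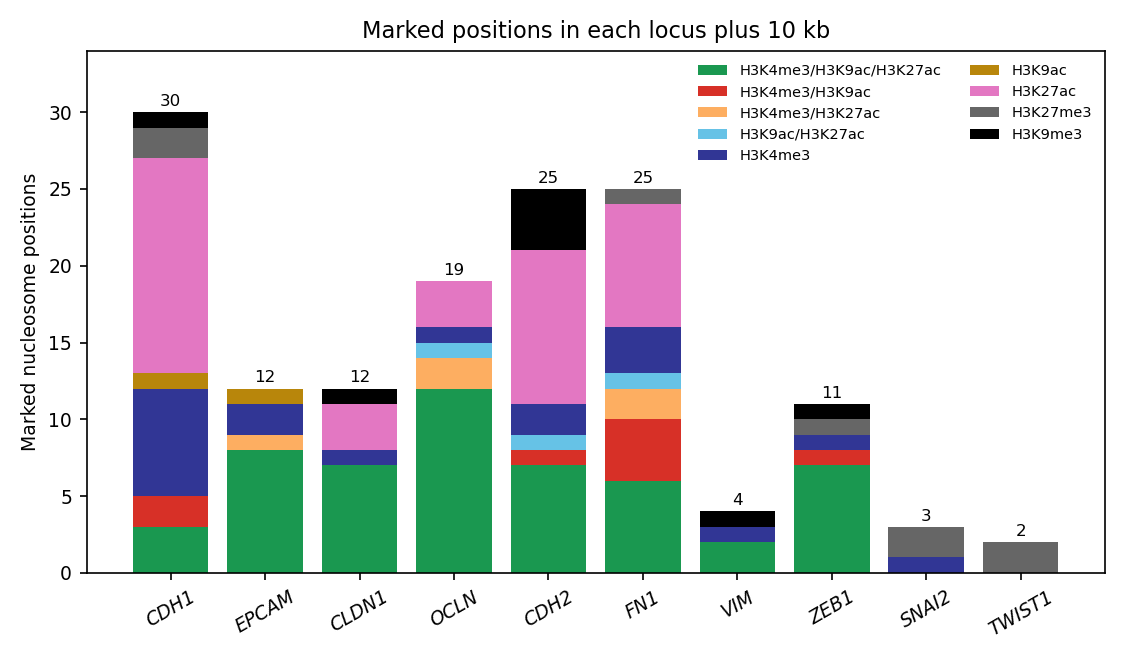
Marked nucleosome positions in each locus plus 10 kb, counted once under the exact set of marks they carry, with the total above each bar. Bars run from 30 in CDH1, 14 of them H3K27ac alone, to 2 in TWIST1, both H3K27me3 alone.

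Near the transcription start site (TSS), the members fell into genes with a series of T, genes with H3K4me3 but no T, and genes with no activation mark. A position was near the TSS if its midpoint was within 2 kb. At least 1 T was found near the TSS of 5 members, CLDN1, OCLN, CDH2, FN1 and ZEB1, and 41.6% of all named loci had this. H3K4me3 was near the TSS of 8 members, H3K9ac of 7, H3K27ac of 5 and H3K27me3 of 2, against 51.6%, 48.8%, 44.1% and 7.42% of named loci. The 5 members with a T were all expressed, and of all expressed named loci 71.6% had a T there, against 9.72% of the others. CDH1 and EPCAM were expressed and had 0 T near the listed TSS. VIM, SNAI2 and TWIST1 had 0.

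CLDN1 and OCLN had the most uniform strings. All 7 marked positions near the CLDN1 TSS were T, in 1 unbroken series from chr3:190038897-190040156 on the minus strand (hg19). They lay from 0.149 to 1.27 kb downstream of the TSS. OCLN had 8 T within 2 kb of the TSS, also unbroken and all downstream, and the stretch went on to chr5:68788112-68790086 (plus strand) with 9 T and H3K4me3 alone at its far end. At least 7 T near the TSS were found at 3.01% of named loci, and CLDN1, OCLN and ZEB1 had that many. No position of either stretch carried H3K27me3 or H3K9me3.

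FN1 and CDH2 had longer and more mixed strings. The table lists an unnamed locus with the same coordinates as FN1 on the opposite strand, at 0.233 and 0.345 FPKM. Around the FN1 TSS, 17 of 20 consecutive positions were marked over 3.77 kb (chr2:216298102-216301873, minus strand). In the order of transcription the string began with H3K27ac alone 0.913 kb upstream, then H3K9ac/H3K27ac, 1 T and 2 positions with H3K4me3/H3K27ac. A run of 5 T followed from 0.419 to 1.02 kb downstream, and after it the 7 marked positions out to 2.72 kb carried H3K4me3 alone (3) or H3K4me3/H3K9ac (4), with no H3K27ac. The CDH2 stretch covered 10 of 10 consecutive positions (chr18:25755320-25758326, minus strand), with 7 T, 1 H3K4me3/H3K9ac and, at its upstream end, 2 positions with H3K4me3 alone. CDH2 was the less expressed of the pair and had 46.2% T among 13 positions within 2 kb (interval 19.2 to 74.9), against 28.6% of 21 for FN1 (11.3 to 52.2), so the intervals overlap widely.

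ZEB1 had 9 marked positions within 2 kb, in 1 unbroken series (chr10:31607116-31610041, plus strand), with 7 T between H3K4me3/H3K9ac upstream and H3K4me3 alone downstream. The TSS of LOC220930, on the opposite strand, is listed 0.076 kb away, at 2.75 FPKM in run 1 and 4.03 in run 2. The marks of ZEB1 and of this neighbour therefore cannot be told apart. Elsewhere in the 230.6 kb window ZEB1 carried only 1 H3K27me3 and 1 H3K9me3 position.

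CDH1 was marked at 7 of 23 positions within 2 kb, all from the TSS to 1.36 kb downstream (chr16:68771057-68772491, plus strand). Of these, 4 carried H3K4me3 alone, 2 carried H3K4me3/H3K9ac and 1 carried H3K27me3 alone. H3K27ac was at 0 of the 23. Among expressed named loci, 6.21% had H3K4me3 but no H3K27ac near the TSS, and 1.56% had H3K27me3 there. H3K27ac appeared inside the CDH1 locus instead, at 14 positions more than 2 kb from the TSS. The densest stretch was 9 of 9 consecutive positions with H3K27ac alone, 55.1 to 56.6 kb downstream (chr16:68826127-68827756), with 2 more from 53.1 to 53.5 kb. Among named loci of at least 50 kb, 13.8% had 10 or more positions with H3K27ac alone in the locus plus 10 kb, and CDH1 and CDH2 were such loci. Whether a stretch is exonic or intronic was not determined here, because no hg19 gene model was used.

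EPCAM had 3 marked positions at its listed TSS, H3K4me3 alone, H3K9ac alone and H3K4me3 alone. A stretch of 5 consecutive T lay inside the locus, 14.4 to 15.3 kb downstream of that TSS (chr2:47596122-47597141, plus strand). The table lists MIR559 with the same coordinates, and so the listed TSS need not be the start of the main EPCAM transcript. Counted over the locus plus 2 kb in place of the TSS, EPCAM had 5 T and CDH1 still had 0. EPCAM carried no H3K27ac alone, no H3K27me3 and no H3K9me3 in its window.

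**Figure D3:**
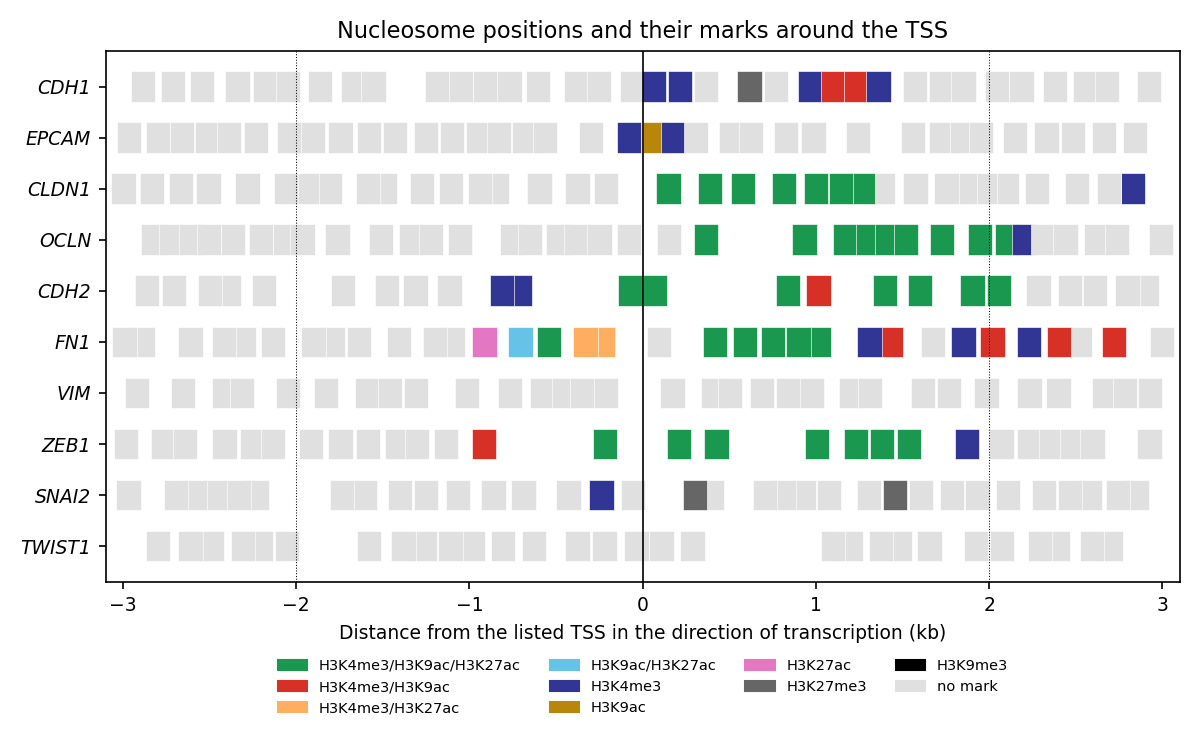
Nucleosome positions from 3 kb upstream to 3 kb downstream of the listed TSS of each gene, drawn at their midpoints in the direction of transcription and coloured by their exact set of marks, with dotted lines at 2 kb. Green T positions are seen at CLDN1, OCLN, CDH2, FN1 and ZEB1, mostly on part of the downstream side, and none at CDH1, EPCAM, VIM, SNAI2 or TWIST1.

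The distal marks differed between members as well. CDH2 had 10 positions with H3K27ac alone beyond 2 kb, with 6 of them and 1 H3K9ac/H3K27ac position 85.2 to 86.9 kb downstream of the TSS (chr18:25670447-25672299). FN1 had 6 inside the locus, 4 of them from 17.8 to 19.2 kb downstream (chr2:216281632-216283141), and 1 more lay 6.40 kb upstream of the TSS. CLDN1 and OCLN had 3 each, the former from 14.1 to 15.6 kb and the latter from 25.6 to 26.9 kb downstream. EPCAM, VIM, ZEB1, SNAI2 and TWIST1 had 0.

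**Figure D4:**
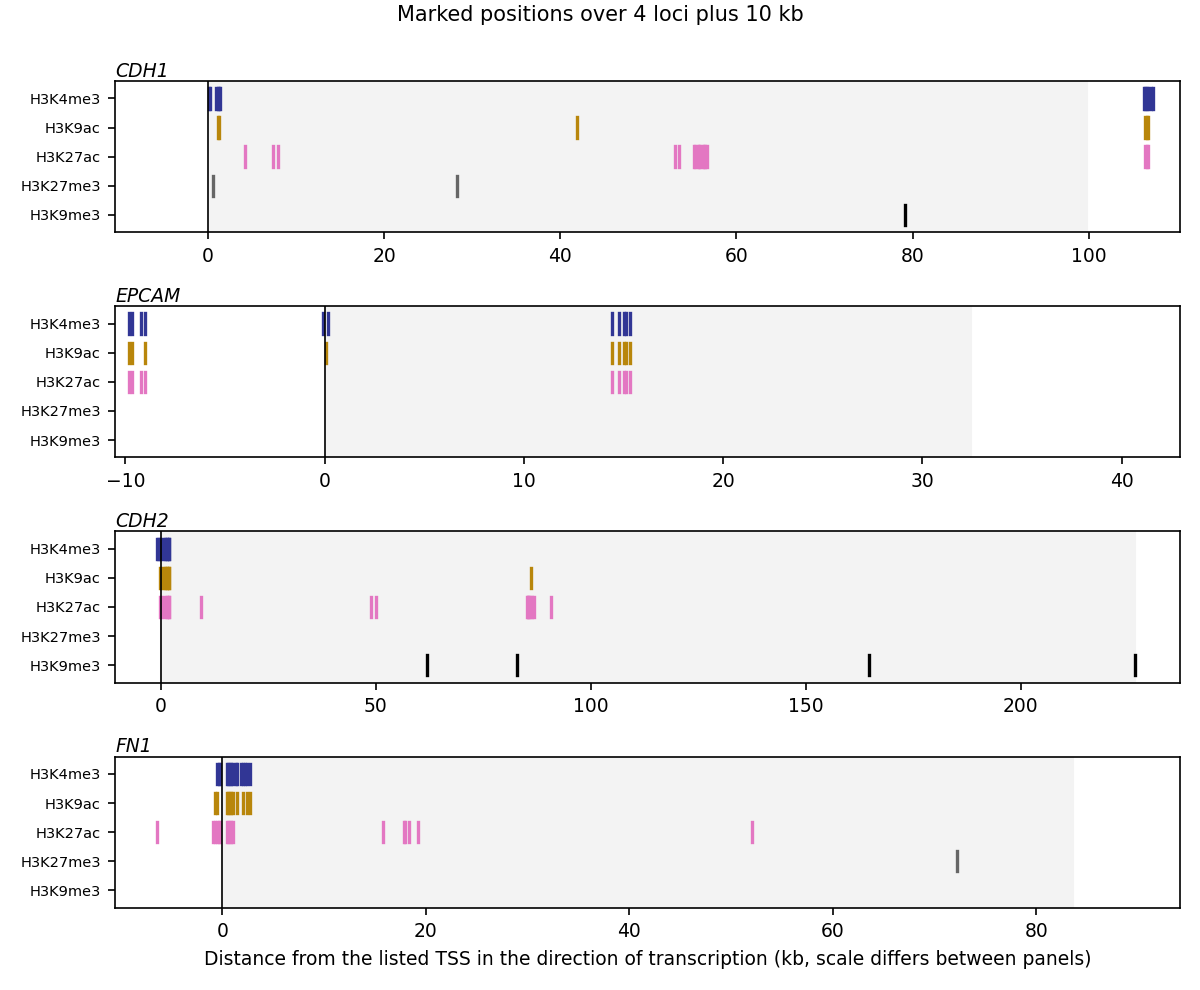
Marked positions over CDH1, EPCAM, CDH2 and FN1 plus 10 kb, with distance from the listed TSS in kb on axes that differ between panels, the locus shaded and 1 row per mark. CDH1 shows H3K4me3 without H3K27ac at the TSS and a block of H3K27ac 55.1 to 56.6 kb downstream, and EPCAM shows all 3 activation marks 14.4 to 15.3 kb inside the locus.

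The members that were not expressed differed in their marks. SNAI2 carried H3K27me3 at 2 positions, 0.302 and 1.46 kb downstream of the TSS (chr8:49833617-49833756 and chr8:49832462-49832601, minus strand), and H3K4me3 alone 0.238 kb upstream. Both H3K4me3 and H3K27me3 within 2 kb, on any positions, were found at 2.37% of named loci, and CDH1 and SNAI2 were the members with both. No single position of SNAI2 carried the 2 marks together. TWIST1 had no mark within 2 kb of the TSS, like 39.8% of named loci, and its 2 H3K27me3 positions lay 10.2 and 11.5 kb downstream of the TSS, past the end of the locus. VIM had no marked position anywhere inside its locus, as did 18.8% of named loci. Of the 4 in its window, 3 were within 2 kb of the TSS of TRDMT1, and the other was an H3K9me3 position 30.6 kb downstream of the listed TSS. The listed VIM locus also covers the second, opposite-strand VIM locus, but with 0 marked positions inside it no choice of TSS there changes this.

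H3K27me3 was found in the windows of 5 members, with 2 positions each in CDH1, SNAI2 and TWIST1 and 1 each in FN1 and ZEB1, and 31.2% of named loci had at least 1. H3K9me3 was found in 5 members, with 4 positions in CDH2 and 1 each in CDH1, CLDN1, VIM and ZEB1, against 31.9% of named loci. Long loci have more room, and among named loci of at least 50 kb 44.4% had H3K27me3 and 53.9% had H3K9me3. H3K9me3 lay within 2 kb of the TSS of 0 members, and of 2.10% of named loci.

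Pooled by group, 15 of 91 positions near the TSS were T in the epithelial members, or 16.5% (interval 9.53 to 25.7), and 19 of 109 in the mesenchymal members, or 17.4% (10.8 to 25.9). Each share lay inside the interval of the other, and the error of their difference was not computed. Over all named loci the share was 7.58%, and over expressed loci 13.2%. The mesenchymal T near the listed TSS were all in CDH2, FN1 and ZEB1, and the epithelial ones all in CLDN1 and OCLN. EPCAM gave 24 of the 91 epithelial positions and 0 T. Its listed TSS need not be its main start, and the 5 T inside its locus are not in this share. Of the 34 T, 31 (91.2%) lay downstream of the TSS, beside 75.3% over all named loci, and the positions of a gene are not independent of each other.

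Other genes of the same roles were read from gene lists of each role. Of 42 further epithelial genes, 30 were expressed and 21 had a T within 2 kb of the TSS, with a median FPKM of 13.2. Of 47 further mesenchymal and pathway genes, 22 were expressed and 12 had a T, with a median of 0.765. Both are to be read beside 48.7% of named loci expressed and 41.6% with a T. In loci merged with other genes both the TSS and the part of the FPKM due to the listed gene are uncertain. This limits the T counts and the expressed counts. Such loci were 2 of the epithelial genes, CTNND1 and MARVELD2, and 3 of the others, TAGLN, MMP2 and TGFB1. All were counted as expressed, and TAGLN was counted with a T. The mesenchymal and pathway pool mixes unlike lists. In it, 3 of 10 transcription factors and 8 of 22 matrix and surface genes were expressed. Of the integrin and syndecan genes 4 of 6 were, and of the TGF-beta pathway genes 7 of 9.

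The 6 adherens junction genes, which encode the catenins and partners that anchor cadherins, were all expressed. CTNNB1 had a mean FPKM of 169.8, CTNND1 had 132.7 in a locus merged with 2 other genes, CTNNA1 had 69.9 and JUP, the lowest, 25.5. The 5 desmosome genes were expressed too, from DSP with 42.7, DSG2 with 26.97 and DSC2 with 13.9 to PKP2 with 10.4, and each had a T near the TSS. Of 19 tight junction and polarity genes, 13 were expressed, with F11R (37.1) and CLDN12 (31.6) among the highest. CLDN7 was the lowest with 0.271. Of 4 epithelial keratins, KRT8 (390.9), KRT18 (242.1) and KRT19 (109.5) were expressed and KRT7 (0.109) was not.

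Of 8 epithelial splicing and transcription genes, 3 were expressed, the splicing factor ESRP2 with 15.1 and the transcription factors GRHL1 with 6.15 and ELF3 with 4.59. Of 10 transcription factors linked to the transition, 3 were expressed, TCF3 with 17.0, SNAI1 with 2.08 and FOXC1 with 1.51, and PRRX1 was at 0. Thus SNAI1, the closest relative of SNAI2 among them, was above SNAI2 in both runs, with 1.996 and 2.16.

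Of 22 mesenchymal matrix and surface genes, 8 were expressed, 2 had a T near the TSS and 5 had H3K27me3 there, a mark near the TSS of 7.42% of all named loci and 13.6% of those not expressed. H3K27me3 was near the TSS of 2 of the 10 transcription factors and of 3 of the 42 epithelial genes. ACTA2 had 33.9, SPARC 29.5 and TAGLN 18.6, the last in a locus merged with SIDT2, and DES was at 0. The fibrillar collagens COL1A1 (0.164) and COL3A1 (0.182) were below an FPKM of 1, and COL1A2 had 1.16. The receptors of fibronectin stood higher, since 4 of 6 genes of integrins and syndecans were expressed. ITGB1, the common integrin beta chain, had 182.6, SDC4 had 103.2 and SDC1 had 88.0. ITGA5, the alpha chain of the classical fibronectin receptor, was the lowest with 0.146 and carried H3K27me3 at 3 positions near the TSS, while ITGAV had 60.2.

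**Figure D5:**
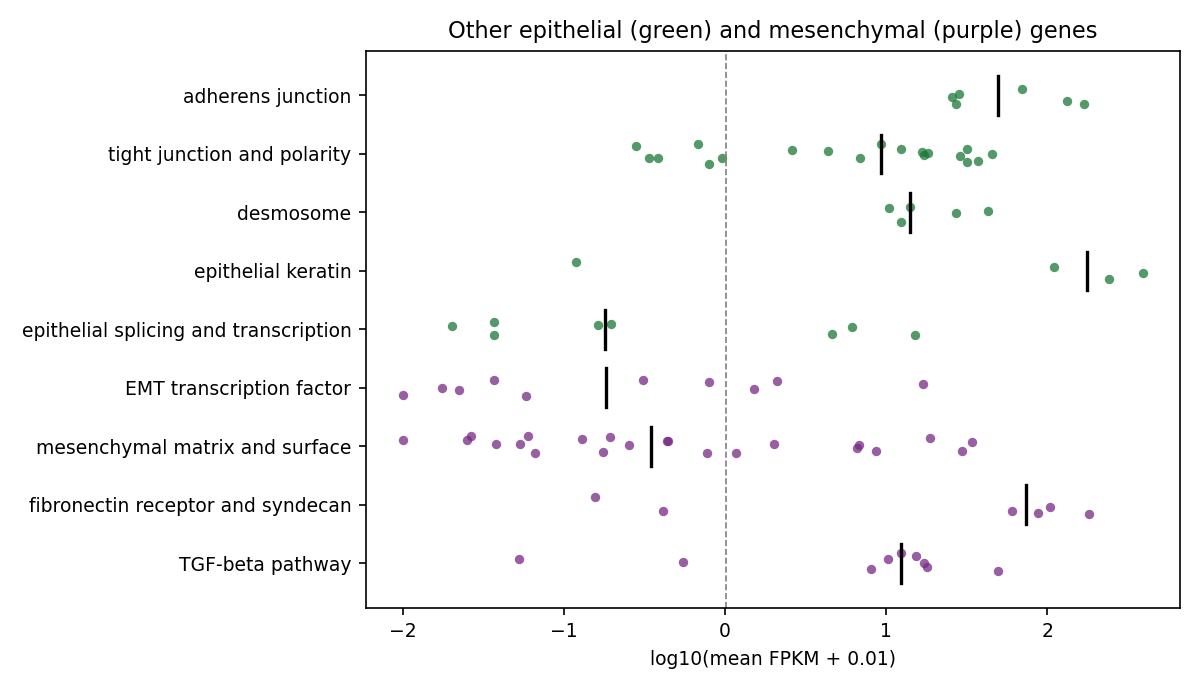
Mean FPKM of other epithelial (green) and mesenchymal or pathway (purple) genes as log10(FPKM + 0.01), 1 point per gene, with the list median as a black bar and a dashed line at an FPKM of 1. All adherens junction and desmosome genes lie to the right of the line, while most transcription factors and matrix genes lie to its left.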

How the data were processed

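HepG2 cells were profiled with 1 sample per assay. Per the labels, the build was hg19 and the tools named were BWA for MNase-Seq and ChIP-Seq and, among others, TopHat2 2.1.0 for RNA-Seq. The authors called nucleosome positions with DANPOS and histone peaks at these positions with NUCLIZE, and deposited coordinates with an identifier only, so the depth behind a peak is unknown. They deposited FPKM in 2 columns with their own comparison of these columns, which was not used. No read counts are given, so the depth of RNA-Seq is also unknown.

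The mean of both FPKM columns was used. Each peak reached 3 bp beyond the 140 bp position whose identifier it carries, and marked that position. Positions are written with the first base as 1, and loci as listed. Strand was inferred from the order of locus numbering, which gave the RefSeq strand for 12326 of 12947 loci with a matching symbol (95.2%). It did so for 8541 of 8594 with coordinates of their own (99.4%), for 3785 of 4353 that share coordinates (87.0%), as EPCAM, VIM and FN1 do, and for 6 of 6 members. The strands of CDH1, EPCAM, SNAI2 and TWIST1 were not checked in this way. A symbol at several loci was read at the highest one. Stretches join marked positions at most 1 kb apart. The members, the lists and this design were chosen with earlier results of these data known. All 10 members are named, and of each list the 3 highest and the lowest gene by FPKM, and of markers the highest per type, except that some items are not reported here. COL1A1, COL3A1, COL1A2, ITGAV, KRT19, SOX9, CD14 and the markers at 0 were named after their values were seen. PVRL2 and MLLT4, as the table spells them, are in the adherens junction list. Counting and strand inference were tested on simulated data and recovered 735 of 735 planted genes. The simulated loci were numbered and marked by the rules that the code assumes. This therefore checks the code and not whether the rules hold for the real loci. Intervals are exact Clopper-Pearson. Alternatives were other flanks, windows, overlaps, FPKM limits, single columns and backgrounds. Tables were handled in pandas 2.3.3 and numpy 2.4.6 under Python 3.11.15, intervals came from scipy 1.17.1 and plots from matplotlib 3.10.9.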

Additional observations from a re-analysis of the deposited data

How the results depend on the processing

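The number of expressed members was 7 with either FPKM column alone and with a limit of 5, and 9 with a limit of 0.1. The median FPKM of the epithelial members stayed above that of the mesenchymal members under every alternative run. As a geometric mean it was 22.8 against 2.14 with a pseudocount of 0.01 and 23.5 against 6.33 with a pseudocount of 1. With only members of at least 0.1 the mesenchymal median was 5.59, and without the highest member of each group the medians were 9.58 and 0.402, so single genes set them. The number of members with a T near the TSS was 5 within 1 and 5 kb, with any overlap of peak and position, and at the end of the locus with more H3K4me3, and 6 when the whole locus plus 2 kb was counted, an alternative chosen after seeing the data. The sum of T near the TSS fell from 34 to 17 within 1 kb, where the share of T was 13.95% in the epithelial and 22.9% in the mesenchymal members. Within 5 kb the shares were 7.34% and 6.78%, since a wider window holds more unmarked positions. Without positions within 2 kb of the TSS of another locus, also chosen later, ZEB1 had 2 marked positions in place of 11, VIM had 1 in place of 4 and CDH1 had 24 in place of 30. CDH1 also had 24 in the locus plus 2 or 5 kb, against 25 for CDH2. With a limit of 0.1, 34 of the 47 mesenchymal and pathway genes were expressed. The share of all named loci expressed was 60.2% with a limit of 0.1, 36.7% with a limit of 5 and 44.5% among loci with coordinates of their own. No paired analysis was possible because each assay has 1 sample. The lack of read counts and of peak heights limits all values here.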

Other observations

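The TGF-beta pathway, an inducer of the epithelial-mesenchymal transition in many cell types, was represented by 9 genes, of which 7 were expressed and 5 had a T within 2 kb of the TSS. The receptor TGFBR2 had a mean FPKM of 49.7, SMAD2 had 17.9 and the inhibitor SMAD7 had 17.2, with 10 T near its TSS. The ligand TGFB2 was the lowest with 0.0423, although H3K4me3 was found at 5 positions near its TSS.

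Several T in the windows belonged to the surroundings of another gene. All 3 T in the CDH1 window were within 2 kb of the TSS of TMCO7, 106.4 kb downstream of the CDH1 TSS, at 5.34 FPKM in run 1 and 5.39 in run 2. In the OCLN window, 3 of 12 T were near the TSS of the locus of GTF2H2C and GTF2H2D. In the EPCAM window, 3 of 8 T were near the TSS of an unnamed locus 9.55 kb upstream, and both T in the VIM window were near TRDMT1.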
